A study of Homo sapiens with 6 samples.

Results

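The genes examined were the G1/S set CCND1, CCND2, CCND3, CCNE1, CCNE2, CDK2, CDK4, CDK6, RB1 and E2F1, which code for the D and E cyclins, their kinases, the retinoblastoma protein and the first described E2F factor. They were taken by gene symbol from a deposited table of 31142 genes, where each of the 10 symbols had 1 row. A total of 10942 genes averaged 1 FPKM or more over the 6 libraries (FPKM counts the fragments of a gene relative to its transcript length and to the size of the library) and were tested, among them 9 of the 10 members. The exception was CCND1. None of the 9 had an unadjusted limma p under 0.05 between S34F and WT libraries, against 2.39% of all genes tested. At an adjusted p under 0.05 the share of all genes was 0%. The library numbered 3 was the lowest of its group in both groups for 8 of the 9, against 29.4% of all genes tested.

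The RNA came from 6 samples labelled as SKM-1, a human leukemia cell line established from a patient with myelodysplastic syndrome, with bone marrow as the source. Per the labels, 3 carried S34F mutant U2AF1 and 3 wild-type U2AF1 (WT), and the time was 96 h in both groups. U2AF1 is the splicing factor that reads the AG at the end of introns, and S34F is a recurrent exchange in its first zinc finger. In the study, FLAG-tagged wild-type or mutant U2AF1 was expressed from a lentiviral vector with a ubiquitin promoter in cells selected with puromycin, which keep their own wild-type U2AF1. The methods describe the controls of the sequencing as a vehicle control and the WT titles carry the prefix of the negative controls, so whether the WT libraries held the wild-type transgene was not settled, and the grouping by titles was kept. The labels give no cultures or clones for the replicates, so the p-values below measure the spread between these samples only.

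Depth estimated from the step size of FPKM in 4754 single-exon genes was about 20500000 to 26100000 fragments per library. U2AF1 RNA was 9.30 ± 0.159 FPKM in S34F and 8.34 ± 0.595 FPKM in WT libraries (SD, n = 3 each), and these values cannot tell mutant from wild-type RNA. The marker genes of the erythroid lineage were high in all libraries: 12 of 12 averaged 1 FPKM or more, and their summed level was 10820 to 12220 FPKM in S34F and 10630 to 11210 FPKM in WT libraries. The markers of monocytes and granulocytes, the lineage SKM-1 is known for, summed to only 11.6 to 27.5 FPKM in S34F and 21.2 to 23.1 FPKM in WT libraries, with 2 of 11 averaging 1 FPKM or more and 0 of them at 0 in every library. The markers therefore went against the label, and the libraries are named here by U2AF1 form alone. Lymphoid markers summed to 8.91 to 15.2 FPKM in S34F and 16.7 to 17.0 FPKM in WT libraries, mostly CD3D. ITGAM, a myeloid integrin, was the only marker past an unadjusted p of 0.05 (log2 fold change -0.52, limma adjusted p = 0.9999), and the part of other cell types in the results below was not tested.

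Passage from G1 into S phase is set by a relay of these proteins. D cyclins, made in response to growth signals, bind CDK4 or CDK6 and phosphorylate RB, which otherwise holds E2F factors in a repressed complex at promoters. Freed E2F turns on E cyclins, further E2F and the enzymes of DNA synthesis, and cyclin E with CDK2 phosphorylates RB further, which closes a positive loop. In blood cells the D cyclins and both D cyclin kinases are shared out unevenly between lineages, and this relay is tied to the choice between dividing and maturing.

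RefSeq promoter windows of GRCh38.p14 were at hand for 6 of the 10 members, in 9 windows, since CCND3 had 3 starts and CDK6 had 2, and the windows of RB1, CDK4 and CCND3 and 1 of those of CDK6 lay wholly inside the gene as GENCODE bounds it. The 250 bases before each start were searched on both strands for the letters that E2F, MYC-type, SP1-type and FOXO factors are known to bind. E2F letters (TTTCCCGC, TTTCGCGC, TTTGCCGC or TTTGGCGC) were found in 2.79% of 35116 promoters of the same length and in 1 of the 9 member windows, with 2 matches, both in E2F1. The E-box CACGTG was found in 6.35% of promoters and in 1 member window, with 3 matches in CDK4. The GC box GGGCGG was found in 42.6% of promoters and in 6 member windows, most often in CCNE1 with 7 matches. The FOXO core TGTTTAC was found in 2.98% of promoters and in 0 member windows. Each motif was counted on its own, and E2F letters and the GC box can share bases. The windows of E2F1, CCNE1 and CDK4 are printed because they hold the most matches of a motif each, 5′ to 3′ on the strand of the gene and up to the base before the start, with the matches on either strand to that motif in capitals (E2F letters for E2F1, GC box for CCNE1, E-box for CDK4). They lie at chr20:33686386-33686635 (minus strand, 72.4% G and C), chr19:29811741-29811990 (plus strand, 81.2%) and chr12:57752311-57752560 (minus strand, 65.6%). A match is a description of the letters and not a bound site.
E2F1: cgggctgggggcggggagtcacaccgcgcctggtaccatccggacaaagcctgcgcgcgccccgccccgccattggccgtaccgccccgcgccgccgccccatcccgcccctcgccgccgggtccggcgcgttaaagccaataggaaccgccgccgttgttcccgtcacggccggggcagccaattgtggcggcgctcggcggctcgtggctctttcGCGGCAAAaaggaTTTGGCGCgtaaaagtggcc
CCNE1: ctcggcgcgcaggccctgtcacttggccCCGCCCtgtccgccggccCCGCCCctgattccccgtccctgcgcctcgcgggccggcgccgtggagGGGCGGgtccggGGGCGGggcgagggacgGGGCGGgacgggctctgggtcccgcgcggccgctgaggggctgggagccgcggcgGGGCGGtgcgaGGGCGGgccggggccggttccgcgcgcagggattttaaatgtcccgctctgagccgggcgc
CDK4: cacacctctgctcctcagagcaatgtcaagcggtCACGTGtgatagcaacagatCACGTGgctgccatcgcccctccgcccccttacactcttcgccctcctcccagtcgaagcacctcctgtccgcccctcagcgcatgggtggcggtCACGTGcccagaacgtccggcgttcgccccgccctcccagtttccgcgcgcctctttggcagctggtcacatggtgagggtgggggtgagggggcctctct

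FPKM is a level per transcript length, so the members could be ranked against each other. By mean over the 6 libraries, CDK4 was highest at 93.0 FPKM, 2.84-fold above CCND3 at 32.8 FPKM, followed by E2F1 at 14.1, CDK2 at 11.0, CCNE1 at 8.86, CCND2 at 4.19, RB1 at 1.84, CCNE2 at 1.32, CDK6 at 1.29 and CCND1 at 0.136 FPKM. Each gene stood above the next in 6 of 6 libraries, except that CCNE2 stood above CDK6 in 4 of 6. The difference between CCNE2 and CDK6 was 0.0216 ± 0.290 FPKM (SD over 6 libraries), so these neighbours did not differ beyond their spread. CDK2 and CCNE1 overlapped in range between libraries although CDK2 was the higher within each. A single member of each family supplied most of its RNA: CCND3 made 86.4 to 90.4% of the D cyclin FPKM, CCNE1 83.7 to 89.5% of the E cyclin FPKM and CDK4 98.2 to 99.0% of the summed CDK4 and CDK6 FPKM. In bulk RNA, fewer cells that express a gene and less RNA per cell cannot be told apart, here and in all that follows.

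CCND3, the cyclin D3 gene, was the main D cyclin in every library and did not pass the test between the groups. It had 32.5, 36.8 and 23.0 FPKM in S34F replicates 1 to 3 and 35.0, 42.9 and 26.7 FPKM in WT replicates 1 to 3. Within each pair of libraries of the same number the S34F value was the lower, but the groups overlapped widely because the number 3 libraries were low in both. The means were 30.8 ± 7.09 and 34.8 ± 8.11 FPKM (SD, n = 3 each). On the scale of log2(FPKM + 1), used for all fold changes here, the log2 fold change was -0.17 (SE 0.228, 95% confidence interval -0.72 to 0.37, limma adjusted p = 0.9999), and the exact permutation test over libraries gave p = 0.6. CCND3 (ENSG00000112576) lies on chromosome 6 from 41934933 to 42050357 on the minus strand of GRCh38.

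CCND2, the cyclin D2 gene, was the minor partner. Its levels were 5.04, 4.75 and 3.24 FPKM in S34F and 4.56, 4.41 and 3.16 FPKM in WT libraries. The S34F library was the higher in 3 of 3 pairs, by small steps, and the groups overlapped. This came to a log2 fold change of 0.08 (SE 0.184, interval -0.36 to 0.51, exact permutation p = 0.5). CCND2 (ENSG00000118971) lies on chromosome 12 from 4273772 to 4305350 on the plus strand.

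CCND1, the cyclin D1 gene, was close to absent in these samples. It was at 0.101, 0.125 and 0.183 FPKM in S34F and 0.189, 0.118 and 0.0997 FPKM in WT libraries. These levels stand for about 8.90 to 21.0 fragments per library, above the level of 3 fragments (at most 0.0340 FPKM), and the groups overlapped. It fell under the filter and was not tested. CCND1 (ENSG00000110092, chromosome 11 from 69641087 to 69654474, plus strand) overlaps LTO1, a gene of the opposite strand with a mean of 2.08 FPKM, and since the strandedness of the libraries was not stated, its few fragments could not be assigned with certainty.

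CDK4, the main D cyclin kinase, was the most abundant member and the one whose S34F values varied least relative to their mean after RB1. The libraries had 94.6, 99.0 and 91.6 FPKM in S34F and 89.8, 102.4 and 80.8 FPKM in WT. The S34F range lay inside the WT range. The estimated log2 fold change was 0.07 (SE 0.114, interval -0.20 to 0.34, exact permutation p = 0.6), which on this scale spans 0.869 to 1.27-fold. CDK4 (ENSG00000135446, chromosome 12 from 57747727 to 57756013, minus strand) overlaps TSPAN31 and MARCH9 on the opposite strand, whose means of 3.38 and 2.38 FPKM were small beside its own.

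CDK6, the other D cyclin kinase, was expressed far below CDK4. Its values were 1.72, 1.53 and 0.926 FPKM in S34F and 1.42, 1.25 and 0.913 FPKM in WT libraries. In 3 of 3 pairs the S34F library was the higher, by little in replicate 3, and the groups overlapped. The estimate was a log2 fold change of 0.11 (SE 0.166, interval -0.28 to 0.51, exact permutation p = 0.5). CDK6 (ENSG00000105810) lies on chromosome 7 from 92604921 to 92836594 on the minus strand.

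RB1, which codes for the pocket protein that D cyclin kinases phosphorylate, was the steadiest member across the libraries. It had 1.83, 1.80 and 1.75 FPKM in S34F and 1.83, 2.01 and 1.83 FPKM in WT libraries. The highest S34F value and the lowest WT value met, and WT replicate 2 stood above the other libraries. The log2 fold change of RB1 was -0.05, with the narrowest interval of the members (SE 0.0940, -0.27 to 0.17, exact permutation p = 0.2). RB1 (ENSG00000139687) lies on chromosome 13 from 48303726 to 48599436 on the plus strand.

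E2F1, the activator held by RB and also a target of E2F itself, was higher per length than RB1 in every library. It had 14.1, 15.2 and 12.3 FPKM in S34F and 14.5, 14.4 and 14.2 FPKM in WT libraries. The 3 WT values lay between the S34F extremes. The groups differed by a log2 fold change of -0.05 (SE 0.110, interval -0.32 to 0.21, exact permutation p = 0.7). E2F1 (ENSG00000101412) lies on chromosome 20 from 33675683 to 33686404 on the minus strand.

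CCNE1, the main E cyclin gene and an E2F target, had the largest estimated rise of the members but did not pass the test. Its levels were 10.9, 10.8 and 6.85 FPKM in S34F and 9.09, 8.79 and 6.74 FPKM in WT libraries. Replicates 1 and 2 of S34F stood above all WT libraries, and replicate 3 of S34F stood below WT replicates 1 and 2, so the groups overlapped. The means were 9.52 ± 2.31 and 8.21 ± 1.28 FPKM (SD, n = 3 each). The log2 fold change was 0.18 (SE 0.199, interval -0.30 to 0.65, limma adjusted p = 0.9999, exact permutation p = 0.5), and the S34F library was the higher in 3 of 3 pairs. The estimate depended on which libraries were kept. Without S34F replicate 3, a fit that keeps the low WT replicate 3, the log2 fold change was 0.37 (limma adjusted p = 0.431). Without the number 3 libraries of both groups it was 0.25 (limma adjusted p = 0.167). CCNE1 passed an unadjusted p of 0.05 in both of these fits, as did 10.6% and 16.9% of all genes tested, so 1 of 9 members was near the background there. The estimate shrank to 0.06 without WT replicate 3, to 0.07 without S34F replicate 1 and to 0.08 without S34F replicate 2. CCNE1 (ENSG00000105173) lies on chromosome 19 from 29811898 to 29824308 on the plus strand.

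CCNE2, the second E cyclin gene, was low. It had 1.28, 1.47 and 0.934 FPKM in S34F and 1.57, 1.71 and 0.924 FPKM in WT libraries. In replicates 1 and 2 the WT library was the higher, in replicate 3 the pair was nearly level, and the groups overlapped. The estimate was -0.10 on the log2 scale (SE 0.168, interval -0.50 to 0.30, exact permutation p = 0.6). CCNE2 (ENSG00000175305, minus strand of chromosome 8 from 94879770 to 94896678) overlaps INTS8 and NDUFAF6 on the opposite strand, at means of 2.88 and 2.76 FPKM, both above its own, so its level is uncertain without strand.

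CDK2, the kinase of cyclins E and A, was nearly level between the groups. Its values were 11.95, 12.15 and 8.53 FPKM in S34F and 11.1, 12.15 and 10.2 FPKM in WT libraries. S34F replicate 3 was the lowest of the 6 and the other libraries lay close together. This gave a log2 fold change of -0.05 (SE 0.155, interval -0.41 to 0.32, exact permutation p = 0.8). CDK2 (ENSG00000123374) lies on chromosome 12 from 55966769 to 55972784 on the plus strand.

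Of the 9 members tested, 0 had an unadjusted p under 0.05, against 2.39% of all genes tested (262 of 10942), and 0 had an adjusted p under 0.05, against 0% of all genes. The groups did not overlap in 0 members, against 7.38% of all genes. With the replicate number as a block, 0 members had an unadjusted p under 0.05, against 4.05% of all genes. With 9 genes these shares of 0 are near what the background gives and set the members apart in no way. Estimates were positive for 4 members and negative for 5, and the middle estimate was -0.05 on the log2 scale, where that of all genes tested was 0.01. The exact permutation tests were two-sided and gave p from 0.2 (RB1) to 0.8 (CDK2), where 3 against 3 libraries cannot give less than 0.1. All 9 intervals lay between -0.72 and 0.65, so a change of 2-fold or more on the log2(FPKM + 1) scale lay outside each, and a change of 1.5-fold lay outside all but those of CCND3 and CCNE1. With the replicate block the intervals were narrower, at -0.39 to 0.04 for CCND3 and -0.08 to 0.44 for CCNE1 (limma adjusted p = 0.994 for each), and a change of 1.5-fold lay outside those of all 9 members. These fold limits hold on the log2(FPKM + 1) scale only. It understates the changes of low genes, most for those near 1 FPKM (CCNE2, CDK6 and RB1). With a pseudocount of 0.1 the estimates were 0.18 for CDK6, -0.16 for CCNE2 and 0.09 for CCND2, against 0.11, -0.10 and 0.08. A change of 1.5-fold in FPKM itself is therefore not excluded for the low genes.

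**Figure D1:**
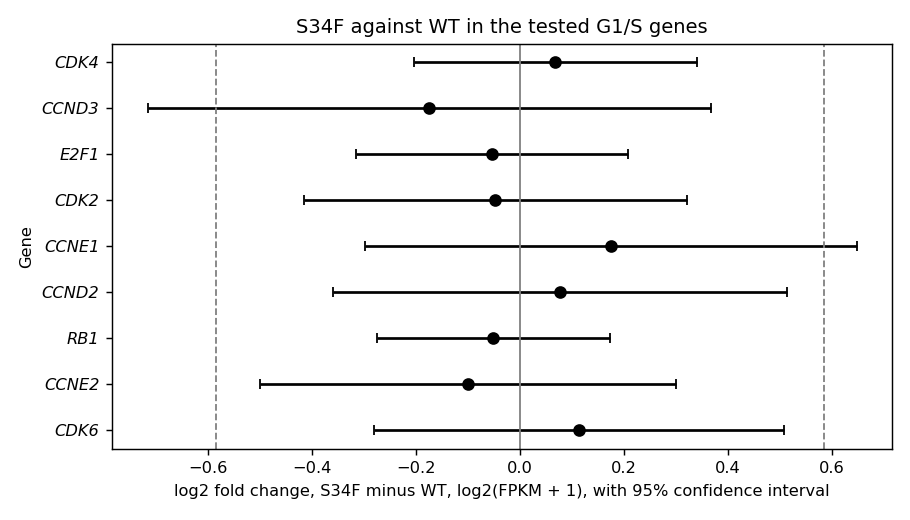
Log2 fold change of each tested member, S34F minus WT on log2(FPKM + 1), with its 95% confidence interval from limma over 3 libraries a group, and with dashed lines at a 1.5-fold change in either direction. All 9 intervals cross 0, and those of CCND3 (-0.72 to 0.37) and CCNE1 (-0.30 to 0.65) reach past a dashed line.

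Ratios of 2 members in the same library do not depend on how the libraries were scaled, and 5 were compared with exact permutation tests. The ratio of CCNE1 to CCNE2 was 8.49, 7.36 and 7.34 in S34F and 5.79, 5.13 and 7.30 in WT libraries. It was the only ratio of the 5 whose groups did not overlap, by a narrow margin at WT replicate 3. As the level of CCNE2 is uncertain without strand, so is this ratio. The mean log2 ratios differed by 0.36 (2.95 ± 0.12 against 2.59 ± 0.258, SD), with an exact permutation p of 0.1, the smallest possible, and 0.5 after Benjamini-Hochberg adjustment over the 5 ratios. The ratio of CCND3 to CCND2 was 6.45, 7.75 and 7.10 in S34F and 7.67, 9.72 and 8.45 in WT libraries, lower in S34F in 3 of 3 pairs, with overlap (log2 difference -0.28, exact permutation p = 0.2, adjusted p = 0.5). The ratio of CDK4 to CDK6 spread from 55.2 to 98.9, and it was highest in the number 3 library of both groups. Its log2 difference was -0.12 (exact permutation p = 0.8). The ratios of CDK4 to CDK2 and of E2F1 to RB1 were 7.89 to 10.75 and 7.02 to 8.45, with log2 differences of 0.12 and 0.02 (exact permutation p = 0.6 and 1.0).

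Most members differed more between the number 3 library and the other libraries of a group than between the U2AF1 forms. This is given as a description with no test, since the pattern was known from these libraries when the members were chosen. The library numbered 3 was the lowest of its group in both groups for 8 of the 9 tested members, where 29.4% of all genes tested (3221 of 10942) showed this, and RB1 was the exception. Relative to the mean of replicates 1 and 2, the median member stood at 0.679 in S34F replicate 3 and 0.754 in WT replicate 3, where the median of all genes tested stood at 1.00 and 0.952. In S34F and WT in that order, the ratios were 0.571 and 0.682 for CDK6, 0.631 and 0.754 for CCNE1, 0.662 and 0.703 for CCND2, 0.663 and 0.685 for CCND3, 0.679 and 0.563 for CCNE2 and 0.707 and 0.881 for CDK2, so CDK6 was lowest in S34F and CCNE2 in WT. CDK4 (0.946 and 0.841), E2F1 (0.837 and 0.987) and RB1 (0.964 and 0.953) stayed nearer 1. CCND1 went opposite ways, at 1.62 and 0.651, on few fragments. The estimated depths of the number 3 libraries, about 24800000 fragments in S34F and 24700000 in WT, lay inside the range of the others. What lowered the members in these libraries was not tested.

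**Figure D2:**
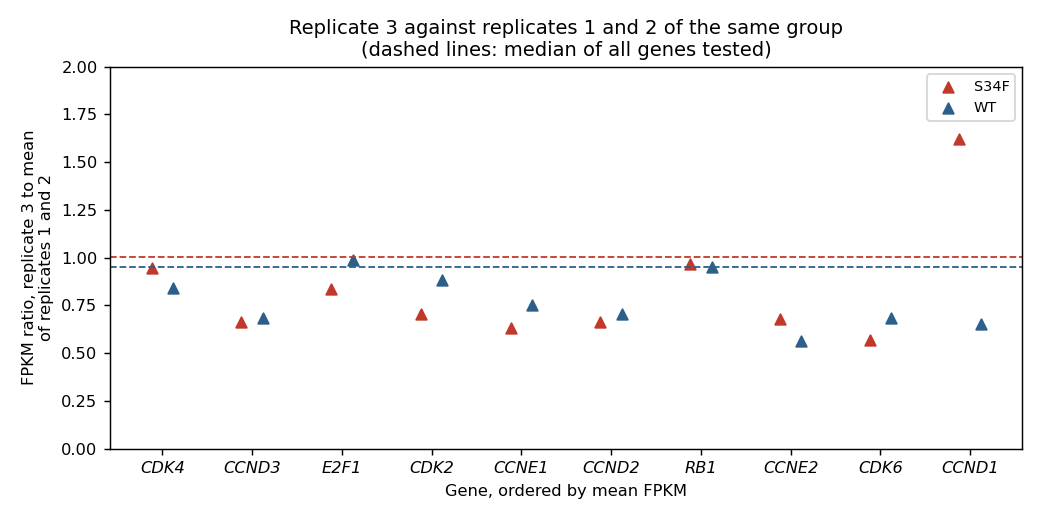
FPKM in the number 3 library divided by the mean of replicates 1 and 2 of the same group, for each member in S34F (red) and WT (blue), with dashed lines at the median of all genes tested (1.00 and 0.952). Points of 8 tested members lie below 1 in both groups, RB1 does too at 0.964 and 0.953 without being the lowest of its WT group, and CCND1 in S34F is at 1.62.

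The same fit was read for 54 further genes of the pathway in 6 lists. Of them 53 were in the table, 50 were tested and 0 had an unadjusted p under 0.05 (background 2.39%), so the values below are estimates that did not pass the test. Estimates were positive for 31 and negative for 19. The groups did not overlap for 1 gene, RBX1, against a background of 7.38%. RBX1, the RING subunit of cullin ubiquitin ligases, was named after its values were seen, with 17.7, 18.9 and 18.1 FPKM in S34F and 16.9, 17.6 and 16.7 FPKM in WT libraries.

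CDK inhibitors bind CDKs, alone or in complex with cyclins, and can hold cells in G1. Of 7 genes in this list 5 were tested, 3 positive and 2 negative, and their median was 0.05. CDKN1A (p21) had the largest estimate among the pathway genes, with 14.9, 13.65 and 28.05 FPKM in S34F and 12.55, 13.8 and 8.32 FPKM in WT libraries. S34F replicate 3 stood far above the rest, and the other 2 S34F values lay near WT replicates 1 and 2. The log2 fold change was 0.62 (SE 0.299, interval -0.09 to 1.33, limma adjusted p = 0.9999, exact permutation p = 0.2). CDKN1B (p27) had a log2 fold change of 0.16 (exact permutation p = 0.5), again with its highest value, 14.7 FPKM, in S34F replicate 3. CDKN2B (p15) was listed at 0 in 5 libraries and at 0.0101 FPKM, under 1 fragment, in S34F replicate 3. CDKN2A was in the list but had no row under its symbol in the deposited table, so it has no value here. FOXO3, a forkhead factor known to act on CDKN1A and CDKN1B, was at 4.68, 4.27 and 8.10 FPKM in S34F and 2.85, 2.77 and 4.80 FPKM in WT libraries, highest in the number 3 library of each group. Its log2 fold change was 0.56 (interval -0.05 to 1.18, limma adjusted p = 0.9999, exact permutation p = 0.3). In S34F replicate 3 both FOXO3 and CDKN1A were the highest of their group. In WT replicate 3 FOXO3 was the highest of its group and CDKN1A the lowest. A link between these genes was not tested.

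Pocket proteins and E2F partners had 10 of 11 genes tested, 2 positive and 8 negative, with a median of -0.04. E2F5 was under the filter. The largest estimates were 0.18 for E2F7, a repressor of E2F targets, and -0.18 for TFDP2, which pairs with E2F on DNA. TFDP2 was the lower in S34F in 3 of 3 pairs, at 6.65, 6.74 and 5.32 FPKM against 7.75, 7.99 and 5.84 FPKM.

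CDK activation had 6 of 6 genes tested with a median of 0.13. CCNH, the cyclin of the CDK-activating kinase, was at 0.21 and WEE1, the kinase that puts an inhibitory phosphate on CDKs, at -0.17 on the log2 scale. Cyclin and inhibitor turnover had 6 of 7 genes tested with a median of 0.07, and FBXW7, whose product marks cyclin E for decay, was under the filter. Here the cullin CUL1 was at 0.20 and SKP2, which directs p27 to decay, at 0.17. SKP2 was 8.16, 8.39 and 3.74 FPKM in S34F and 6.02, 6.54 and 4.44 FPKM in WT libraries, so that its order between the groups turned in replicate 3.

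E2F-driven S phase genes had 19 of 19 tested, 14 positive and 5 negative, with a median of 0.03. RRM2, a subunit of ribonucleotide reductase, had 15.2, 8.75 and 5.55 FPKM in S34F and 8.48, 7.52 and 5.09 FPKM in WT libraries (log2 fold change 0.36), with S34F replicate 1 well above the rest. TYMS, the thymidylate synthase gene, had an estimate of 0.21. Later cyclins and CDK1 had 4 of 4 tested with a median of 0.03, and the largest estimates were 0.06 for CCNA2 and 0.03 for CCNB2, which drive S phase and mitosis.

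The low values in the number 3 libraries extended over the targets. Replicate 3 was lowest in both groups for 18 of 19 S phase genes, with SLBP as the exception, for 4 of 4 later cyclins and CDK1 and for 8 of 10 pocket proteins and partners, where the background was 29.4%. It was so for 3 of 6 CDK activation genes, 2 of 6 turnover genes and 1 of 5 CDK inhibitors. The median ratio of replicate 3 to replicates 1 and 2 was 0.752 in S34F and 0.775 in WT libraries for the S phase genes, 0.659 and 0.725 for the later cyclins, and 1.38 and 1.02 for the CDK inhibitors. The medians of the S phase genes and later cyclins were thus low in replicate 3 of both groups, and that of the CDK inhibitors was not. CDKN1A went opposite ways, with a ratio of 1.96 in S34F and 0.631 in WT libraries. The cause was not tested.

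On the log2(FPKM + 1) scale CCND3 and CCNE1 had the largest SDs over the 6 libraries, at 0.316 and 0.272. This order depends on the scale, since relative to the mean FPKM the SD was 21.8% for CCND3 and 20.5% for CCNE1 but 25.1% for CCNE2, 25.2% for CDK6 and 29.4% for CCND1. Among all genes tested, those whose centred values lay nearest to CCND3 were NOLC1, FBXO4 and AC105052, at root mean square differences of 0.0591, 0.0663 and 0.0682. Those nearest to CCNE1 were ZNF467, AC002116 and NEFH, at 0.0230, 0.0273 and 0.0282. NOLC1 had 34.8, 37.15 and 25.9 FPKM in S34F and 35.9, 43.6 and 29.5 FPKM in WT libraries, which follows the order of CCND3. Only 6 libraries bear on this likeness, and it describes levels alone.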

How the data were processed

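RNA was sequenced from 3 S34F and 3 WT samples, and the authors deposited an FPKM value per gene and library in 1 table, whose name speaks of counts. The submitters' processing notes name StringTie and edgeR. The aligner, genome build and annotation are not given in the sources used here. Columns with the authors' own fold changes and p-values were not used. Gene coordinates came from GENCODE 29 (GRCh38) by gene ID. FPKM carry no counts, so depth was estimated and limits the precision of low genes. Groups followed the sample titles.

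Values were fitted as log2(FPKM + 1) with limma 3.58.1 in R 4.3.3 (empirical Bayes with a mean-variance trend, no block) over the 10942 genes averaging 1 FPKM or more, and p-values were adjusted by Benjamini-Hochberg over these. The script was tested on simulated data. Single ratios were tested by exact two-sided permutation (scipy 1.17.1). The replicate numbers were taken to pair the samples, since deviations of libraries of the same number correlated at 0.212, 0.174 and 0.38 across genes and the study speaks of pairs. Libraries numbered 1 and 2 also correlated across numbers, at 0.197 and 0.134, and those numbered 3 with neither (-0.295 to -0.205). These values therefore set apart number 3 only, and the pairing of numbers 1 and 2 rests on the labels. The main fit and the permutation tests did not use the pairing.

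Members and lists were chosen with earlier results of these data known. Named were all members and, per list, genes with an unadjusted p under 0.05 or otherwise the 2 with the largest absolute log2 fold change, CDKN1A, CDKN1B and CDK inhibitors at 0, and for the 2 members with the largest SD on the log2 scale the 3 genes nearest in pattern. As alternatives, the libraries were scaled by median ratios or upper quartiles, and the fit was run with a pseudocount of 0.1, no filter, no trend, the replicate block and leaving out each library. Leaving out both libraries numbered 3 was chosen after seeing the data.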

Additional observations from a re-analysis of the deposited data

How the results depend on the processing

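Of 117 values of the 9 members under the alternatives, 106 kept their direction and their side of an unadjusted p of 0.05, 9 turned direction and 2, both of CCNE1, passed the threshold. The fits with no filter, no trend and the replicate block cannot turn a direction. They leave each log2 fold change of the members as it was and alter only its p-value. The replicate block changed no call: 0 members and 0 pathway genes passed. The members' median of -0.0464 could not move under it, since each replicate number has a library in both groups. Scaling, pseudocount, filter and trend changed no member call either. Leaving out 1 library at a time, the count of members past the threshold ran from 0 to 1 (CCNE1, without S34F replicate 3) and that of pathway genes from 0 to 4 (SKP2, CDT1, PCNA and TK1 without S34F replicate 3, and CDKN1A without S34F replicate 2). Without both libraries numbered 3, the counts were 1 (CCNE1) and 7 (E2F3, TFDP2, CDK7, SKP2, CDT1, TK1 and MYBL2), each with an adjusted p over 0.05. In the fits without S34F replicate 3, without both libraries numbered 3 and without S34F replicate 2, 10.6%, 16.9% and 2.18% of all genes passed, so these counts of members and pathway genes were near or under the background. The cause was not tested.

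Over the single libraries left out, the log2 fold change ran from -0.0557 to 0.236 for CCND2, -0.348 to 0.0159 for CCND3, -0.128 to 0.105 for CDK2, -0.0126 to 0.156 for CDK4, 0.0556 to 0.374 for CCNE1, 0.0149 to 0.262 for CDK6, -0.252 to -0.0015 for CCNE2, -0.0655 to -0.0201 for RB1 and -0.117 to 0.0259 for E2F1, and the members' median from -0.0603 to 0.0949. The log2 differences of the ratios ran from -0.366 to 0.0546 for CDK4 to CDK6, -0.0184 to 0.202 for CDK4 to CDK2 and -0.0467 to 0.0875 for E2F1 to RB1. Without both libraries numbered 3, CDK2 turned to 0.0497, E2F1 to 0.0199 and CDK4 to CDK2 to -0.0402. Across all genes, 262 passed the unadjusted threshold, against 904 of 31142 without the filter, 443 with the replicate block, 162 without WT replicate 1, 1160 without S34F replicate 3 and 1846 without both libraries numbered 3. Depth limits CCND1 most, at about 8.90 to 21.0 fragments a library.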
